A study of Mus musculus with 5 samples.

Results

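The autophagy machinery genes comprised 32 genes, chosen by symbol from a list of genes that build, regulate or receive autophagosomes, and all 32 were found among the 41128 genes of the deposited table. Cardiomyocyte nuclear RNA was compared between the border zone, the surviving muscle beside an infarct, and remote muscle of the same kind of heart. All animals were FVB mice aged 8 weeks whose left anterior descending coronary artery had been permanently tied 7 days earlier, so both regions came from infarcted hearts and no uninjured heart was compared. The border zone group consisted of mice 32, 34 and 40, and the remote group of mice 40 and 43. Of the 4 animals only mouse 40 gave both regions, and the labels state no other treatment or allele. Nuclei were sorted with an antibody to PCM-1, which marks the envelope of cardiomyocyte nuclei, and cDNA was amplified from 500 pg.

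Autophagy carries cytoplasm and damaged organelles to the lysosome inside a double membrane. A kinase complex around ULK1 starts the process, a lipid kinase complex marks the site, ATG2 and ATG9 supply lipid, and a pair of ubiquitin-like conjugation systems attaches LC3 and GABARAP proteins to the growing membrane. Receptors such as p62 bring cargo to LC3, and lysosomes then break the contents down. In heart muscle the pathway is known for clearing damaged mitochondria and protein aggregates, and TFEB is a transcription factor that activates many of its genes through an E-box. The measurements here are of RNA in nuclei and do not give the rate of autophagy.

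RefSeq promoter windows (GRCm38.p6) were matched by symbol for 26 of the 32 genes, in 29 windows, and the 250 bases before each start were read. They were searched on both strands for GTCACGTG, the core of the E-box that TFEB binds, which contains the shorter palindrome CACGTG. The core was found in 3 of the 29 windows, or 10.3%, and in 1.85% of all 32851 windows. The palindrome, with or without the longer core, was found in 4 windows, or 13.8%, and in 6.02% of all windows. The matches to the longer core are shown because they lie in genes of both the conjugation system and the lysosome, whose values follow. Capitals mark the core, in either orientation.
Atg7, chr6:114670951-114670980, plus strand: ccatattggtgGTCACGTGtgcagtaagtg
Lamp1, chr8:13159122-13159151, plus strand: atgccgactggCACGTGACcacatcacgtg
Atg3, chr16:45158722-45158751, plus strand: ggcctccttttGTCACGTGtcctgggagag
Atg3, chr16:45158745-45158774, plus strand: gggagagtcgaGTCACGTGaggccttaggt
Atg3 held 2 cores. The Atg7 match lies before a RefSeq start that is internal by GENCODE M21, where it falls 27854 bases inside the gene. A match describes the letters and says nothing of binding.

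A pair of whole upstream windows is shown for genes at opposite ends of the comparison, Atg13 with the highest log2 change and Map1lc3b with the lowest among the LC3 genes. Capitals mark the GC box GGGCGG on either strand, found in 65.5% of the 29 windows and 32.7% of all windows; Atg13 had none.
Atg13, chr2:91710593-91710842, minus strand: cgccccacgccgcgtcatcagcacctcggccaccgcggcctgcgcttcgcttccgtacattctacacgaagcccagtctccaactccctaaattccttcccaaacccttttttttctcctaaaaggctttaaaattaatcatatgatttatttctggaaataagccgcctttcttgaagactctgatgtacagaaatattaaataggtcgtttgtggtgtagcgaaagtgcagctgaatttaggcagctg
Map1lc3b, chr8:121590188-121590437, plus strand: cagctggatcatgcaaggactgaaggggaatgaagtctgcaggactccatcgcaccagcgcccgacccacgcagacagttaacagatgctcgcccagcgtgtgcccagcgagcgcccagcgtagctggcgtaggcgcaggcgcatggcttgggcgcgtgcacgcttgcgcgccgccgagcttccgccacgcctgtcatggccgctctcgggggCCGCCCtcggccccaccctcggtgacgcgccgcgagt
By GENCODE M21 the last 77 bases of the Map1lc3b window lie inside that gene. The Atg13 window lies between the starts of Atg13 and Harbi1, which are transcribed away from each other from starts 276 bases apart.

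The libraries held 11324539 to 25014205 reads. At the depth of the shallowest, the border zone libraries would hold 15843, 18288 and 19602 genes in mice 32, 34 and 40, against 22670 and 22386 in remote muscle of mice 40 and 43. The 10 cardiomyocyte markers took 12.8% to 16.0% of border zone reads and 12.2% to 14.7% of remote reads. Fibroblast markers took at most 0.0272% in any library and smooth muscle and pericyte markers 0.00646% to 0.0120% of border zone reads and 0.0269% to 0.0654% of remote reads. Endothelial, macrophage and lymphocyte markers stayed at or below 0.00529%, and of all markers found in the table only the lymphocyte gene Cd3g was at 0 throughout. The part of these differences in the results was not tested.

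No autophagy gene passed the test for a difference between border zone and remote nuclei. The change is given as log2(normalized reads + 1), border zone over remote, where normalized reads are the read number of a gene scaled by the authors with 1 size factor per library. By limma, 0 of the 32 genes passed at an adjusted p under 0.05 (smallest adjusted p = 0.172), as did 0% of the 14989 genes tested. edgeR and DESeq2 on the recovered reads also called 0 of the 32. The authors' deposited table called 0 as well, where 5.44% of its 16592 genes with an adjusted p were called. The DESeq2 run repeats that table, with 902 genes called in each, and is not a separate result. At an unadjusted limma p under 0.05 stood 6 of the 32 genes, 3 with higher and 3 with lower values, and 18.1% of all tested genes did, 10.2% higher and 7.87% lower. edgeR gave 5 such genes, against a background of 16.0%, and 5 genes reached this level in the authors' deposited table, against 13.5%. With 1 border zone library left out, the limma count of 6 moved to between 2, without mouse 32, and 9, without mouse 40. Fits without a remote library keep 1 library in that group, so their counts are left out and this range does not cover them. The share of all tested genes at that level is not given for the fits without a border zone library. It may have moved too, since without border zone mouse 40 limma called 235 of all tested genes at an adjusted p under 0.05. With all libraries, the share among the autophagy genes was thus close to that of the background.

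The 32 genes had 15 positive and 17 negative log2 changes, from -3.72 to 1.51, with a median of -0.12. The median over all tested genes was -0.21, and 55.0% of them were negative. For 10 of the 32 genes the values of the regions were fully separated, with the border zone above in 6 and below in 4. Of all tested genes 39.2% were separated in this way, 18.9% above and 20.3% below. Counted as a share of all reads, the 32 genes together took 0.0766%, 0.0909% and 0.127% in the border zone of mice 32, 34 and 40, against 0.150% and 0.190% in remote mice 40 and 43. With the authors' size factors, the median gene of the list had 255.2, 234.4 and 331.7 normalized reads in those border zone libraries, against 250.6 and 314.3 in the remote ones. The direction of a single gene therefore depended on the scaling, and total-count scaling moved the median change of all tested genes by -1.37. Under it 2 of the 32 changes were positive, 1 in the ULK1 kinase complex and 1 in the lipid kinase complex. By contrast, 16 of the 32 lay above the median of all tested genes under either scaling. The size factors ran against depth, from 0.631 in border zone mouse 32, the deepest library, to 1.37 in remote mouse 43, the shallowest. Separations between the groups are given on the authors' scaling. For Atg13, Ambra1 and Atg2a the border zone library with the fewest genes, that of mouse 32, had the highest value, and the part of this in their changes was not tested. In these pooled nuclei, fewer nuclei that carry a transcript and less of it per nucleus cannot be told apart.

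**Figure D1:**
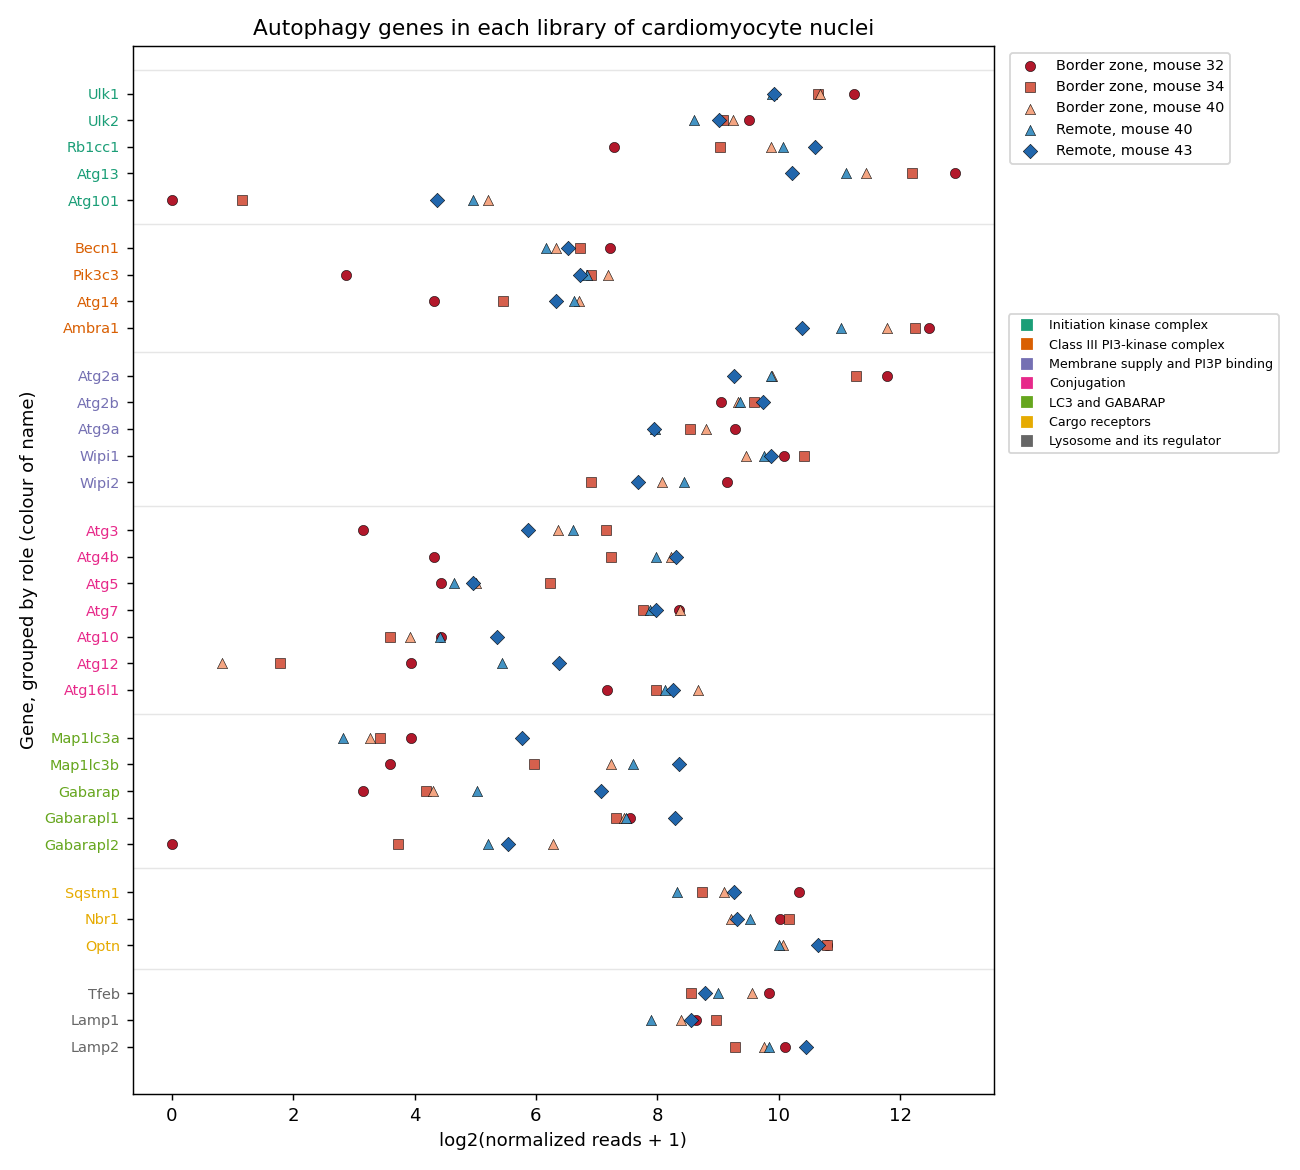
Each row is an autophagy gene, grouped by role, and each point is a library, placed at log2(normalized reads + 1) on the x axis; red points are border zone and blue points remote libraries. Border zone mouse 32 stands apart for Gabarapl2, which had 0 reads there, and border zone mice 32 and 34 for Atg101, while the points of the cargo receptors and lysosomal genes mix.

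The ULK1 kinase complex held genes at both ends. Atg13, the adaptor that ties the kinase to its scaffold, had 7647, 4664 and 2766 normalized reads in the border zone of mice 32, 34 and 40, against 2195 and 1194 in remote mice 40 and 43. The groups did not overlap, but the nearest libraries were those of mouse 40. Its log2 change was 1.51 ± 0.53 (SE, limma adjusted p = 0.198), and 0.33 between the libraries of mouse 40. Ulk1, the kinase itself, had 2406, 1603 and 1645 in the border zone mice, against 947 and 974 in remote mice 40 and 43. Here the remote libraries lay close together and below each border zone library, and the log2 change was 0.95 ± 0.45 (limma adjusted p = 0.297), or 0.80 within mouse 40. Ulk2, its close relative, also did not overlap, with 541 to 724 normalized reads in the border zone and 387 to 516 in remote muscle, and a log2 change of 0.47 ± 0.50. These separations hold on the authors' size factors. With total-count scaling 1 of the 5 genes of the complex had a positive change.

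The other members of the complex had negative changes. Rb1cc1, which encodes the scaffold FIP200, had 155, 524 and 939.6 normalized reads in the border zone of mice 32, 34 and 40, against 1078 and 1547 in remote mice 40 and 43. All border zone values lay below, mouse 32 far below, and the log2 change was -1.60 ± 0.69 (limma adjusted p = 0.255) but -0.20 within mouse 40. Relative to all tested genes Rb1cc1 was at -1.39, and at -0.78 without border zone mouse 32. Atg101, a partner of ATG13, was a low gene with 0, 1 and 46 recovered reads in the border zone mice, against 40 and 27 in the remote mice. Its groups overlapped, since border zone mouse 40 was the highest library, and a count of 0 in border zone mouse 32 allows up to 3 reads, or 4.75 normalized reads. The log2 change of -2.55 ± 1.77 therefore rested on border zone mice 32 and 34, and within mouse 40 it was 0.25.

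In the lipid kinase complex, Ambra1 had the smallest limma p of the 32 genes, while in the authors' deposited table Atg12 had the smallest. AMBRA1 binds Beclin 1 and helps recruit the complex. It had 5683, 4874 and 3514 normalized reads in the border zone of mice 32, 34 and 40, against 2079.7 and 1327 in remote mice 40 and 43. Each border zone library lay above both remote ones, with a mean of 4691 ± 1096 against 1703 ± 532.5 (SD, n = 3 and 2), and the log2 change was 1.47 ± 0.46 (limma adjusted p = 0.172, authors' deposited table adjusted p = 0.108), or 0.76 within mouse 40. Ambra1 (mm10 chromosome 2, 91730134 to 91918849, plus strand) and Atg13 (chromosome 2, 91674618 to 91710576, minus strand) lie 19557 bases apart, with Harbi1 between them. The catalytic subunit gene Pik3c3 had 6.34, 119 and 144 normalized reads in the border zone of mice 32, 34 and 40 and 113 and 105 in the remote mice, so that only border zone mouse 32 stood apart. Becn1, which encodes Beclin 1, and Atg14, which directs the complex to autophagosomes, had log2 changes of 0.41 ± 0.75 and -0.99 ± 0.96, with overlapping groups. With total-count scaling 1 of the 4 genes of this complex had a positive change.

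Among the genes for lipid supply and its guides, Atg2a, a lipid transfer protein, had 3504, 2484 and 943 normalized reads in the border zone of mice 32, 34 and 40, against 937 and 613 in remote mice 40 and 43. The groups did not overlap, but both libraries of mouse 40 were almost level, and the log2 change of 1.41 ± 0.58 (limma adjusted p = 0.241) was 0.01 within that animal. Its paralog Atg2b had a log2 change of -0.22 ± 0.49 with overlapping groups. Atg9a, the membrane protein that carries lipid between the leaflets, had 619.7, 369 and 447 normalized reads in the border zone mice, against 249 and 244 in the remote mice. Its groups did not overlap (log2 change 0.92 ± 0.54, limma adjusted p = 0.38), and the value within mouse 40 was 0.84. Wipi1 and Wipi2, which bind the lipid made by the kinase, had log2 changes of 0.17 ± 0.49 and -0.01 ± 0.71. With total-count scaling 0 of these 5 genes had a positive change.

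**Figure D2:**
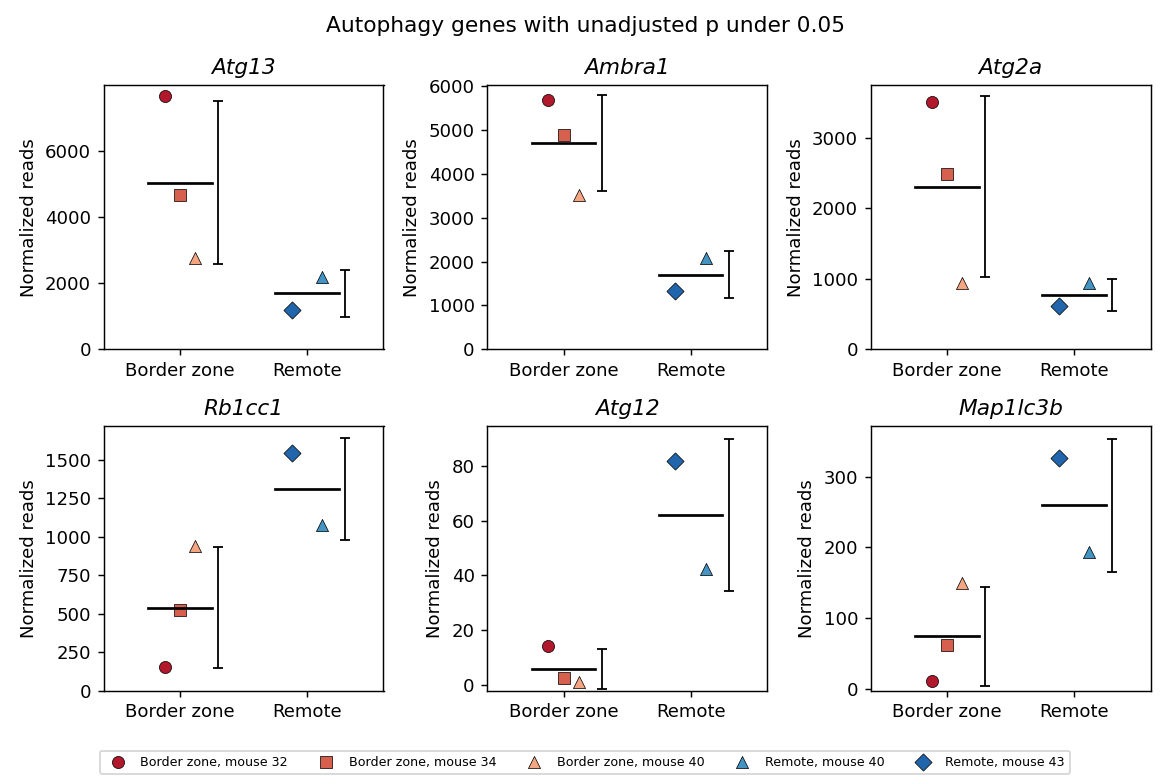
Normalized reads (y axis, linear) of the 6 autophagy genes with an unadjusted limma p under 0.05, by group; points are libraries, horizontal lines group means and bars SD over 3 border zone and 2 remote libraries. Triangles are mouse 40, whose libraries are next to each other in rank in 5 of the panels, but not for Atg12. Next in rank is not level, as for Ambra1, with 3514 in the border zone and 2079.7 in remote muscle of mouse 40.

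Of the 7 conjugation genes, 5 had negative changes, against 55.0% of all tested genes, and 0 passed by limma. Without border zone mouse 32 the negative changes were 3 of 7, and within mouse 40 alone also 3 of 7. Atg12, the ubiquitin-like modifier joined to ATG5, had 14.3, 2.46 and 0.782 normalized reads in the border zone of mice 32, 34 and 40, against 42.3 and 81.9 in remote mice 40 and 43. These values rest on 9, 2 and 1 recovered reads in the border zone and 56 and 112 in the remote libraries. All border zone libraries lay below, with a log2 change of -3.72 ± 1.46 (limma adjusted p = 0.224, authors' deposited table adjusted p = 0.0839), and -4.60 within mouse 40. Relative to the median of all tested genes the value ran from -4.50 to -2.78 when each library was left out in turn. In mice 40 and 43 alone it was -5.09, where the border zone is 1 library with 1 recovered read of Atg12.

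The remaining conjugation genes overlapped between the groups. Atg4b, the protease that trims LC3, had 19.0, 149 and 298 normalized reads in the border zone of mice 32, 34 and 40 and 252 and 316 in the remote mice, with overlapping groups. Atg3, the E2-like enzyme for LC3, had 7.92, 142 and 81.4 in the border zone mice and 96.6 and 57.7 in the remote mice. Border zone mouse 32 was the lowest library for both. Atg7, the E1-like enzyme of both systems, had a narrow range of 217 to 329 in the border zone and 233 to 252 in remote muscle, with a log2 change of 0.23 ± 0.57. Atg5 and Atg16l1, which form the ligase with ATG12, had log2 changes of 0.42 ± 1.07 and -0.26 ± 0.62, and the E2-like Atg10 -0.91 ± 1.19. Of the 3 genes whose windows held the TFEB core, Atg7 and Lamp1 had positive limma changes and Atg3 a negative one, none past the threshold. The Atg3 change of -0.68 ± 1.18 has no clear sign, since its group means were 76.9 in the border zone and 77.2 in remote muscle. Relative to all tested genes it was -0.47, and 0.61 without border zone mouse 32.

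The LC3 and GABARAP genes, whose products are attached to the autophagosome membrane, all had negative log2 changes, 5 of 5, against 55.0% of all tested genes. Their median was -2.04, or -1.83 relative to all tested genes. This median is the value of a single gene, Gabarapl2, which had an SE of 1.70 and 0 reads in border zone mouse 32. The authors' deposited table gave Gabarapl2 a log2 fold change of -0.45. With quantile normalization 4 of the 5 were negative and Map1lc3a was positive, and without remote mouse 43 Map1lc3a again turned positive. The median was -0.94 without border zone mouse 32 and -1.15 without remote mouse 43. Within mouse 40 alone 3 of the 5 were negative, with a median of -0.02. None of the 5 passed by limma. When tested genes were divided by mean level into 5 equal bins, Map1lc3a lay in the lowest bin. The median change of all genes there was -0.91, below the -0.74 of Map1lc3a. Gabarap and Gabarapl2 lay in the next bin, where the median of all genes was -0.79. Map1lc3b and Gabarapl1 lay in bin 4, where it was -0.01.

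Map1lc3b, which encodes LC3B, had 11.1, 61.5 and 149 normalized reads in the border zone of mice 32, 34 and 40, against 193 and 327 in remote mice 40 and 43. The groups did not overlap, and border zone mouse 40 lay nearest the remote libraries. Means were 74.0 ± 70.0 against 260.0 ± 94.4 (SD, n = 3 and 2). The log2 change was -2.38 ± 1.02 (limma adjusted p = 0.252), and -0.37 within mouse 40. Relative to all tested genes it was -2.17, and -1.28 without border zone mouse 32. Gabarap had 7.92, 17.2 and 18.8 in the border zone mice, against 31.7 and 134 in the remote mice, also without overlap (log2 change -2.17 ± 1.17, limma adjusted p = 0.343, authors' deposited table adjusted p = 0.118). Remote mouse 43 was far above the rest, and without it the value relative to all tested genes was -0.95, compared with -1.96 with all libraries.

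Gabarapl1 was the steadiest of the family and the most abundant per kilobase. It had 185, 159 and 175 normalized reads in the border zone of mice 32, 34 and 40 and 177 and 313 in remote mice 40 and 43. Only remote mouse 43 stood apart, and the log2 change was -0.45 ± 0.61 (limma adjusted p = 0.718). Map1lc3a, which encodes LC3A, had 14.3, 9.84 and 8.61 in the border zone mice and 6.04 and 53.4 in the remote mice. One remote library was the lowest and the other the highest, giving -0.74 ± 1.40 (limma adjusted p = 0.796). Gabarapl2 had 0, 12.3 and 76.7 in the border zone mice and 36.2 and 45.3 in the remote mice, so that the border zone held both the lowest and the highest library (log2 change -2.04 ± 1.70, limma adjusted p = 0.534). Relative to all tested genes it was at -1.83, and at -0.27 without border zone mouse 32. It was the only gene of the list with near-identical transcripts elsewhere in the annotation, 3 pseudogene copies with at least 95% identity over at least 300 bases, and its counts are uncertain for that reason.

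**Figure D3:**
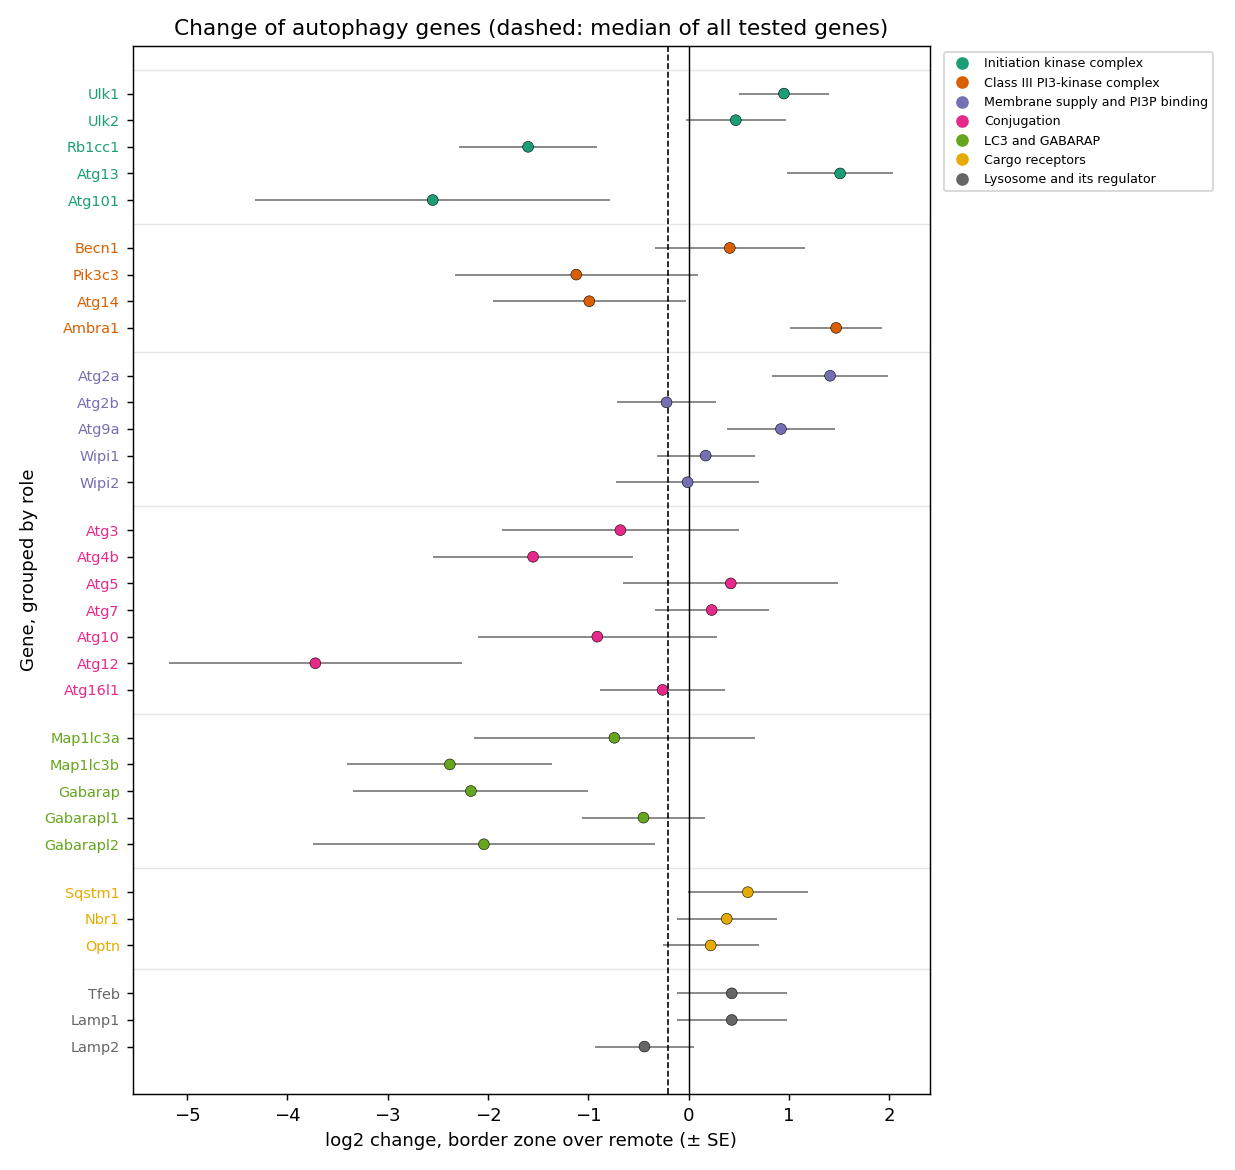
Points give the log2 change of each autophagy gene, border zone over remote, on log2(normalized reads + 1), with bars of 1 SE from limma; the solid line marks 0 and the dashed line the median of all tested genes, -0.21. The 5 LC3 and GABARAP genes lie left of 0 and the 3 cargo receptors right of it, and the widest bars belong to genes with few reads, such as Atg101 and Gabarapl2.

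The cargo receptors had small positive changes of 0.22 to 0.59, 3 of 3. All 3 lie in the most abundant of 5 equal bins of tested genes, where the median change of all genes was 0.69, above each of them. Relative to all tested genes the 3 changes were also positive with total-count scaling (Sqstm1 0.75, Nbr1 0.54, Optn 0.38), but with quantile normalization Nbr1 and Optn were negative. Sqstm1, which encodes p62, had 1287, 425 and 546 normalized reads in the border zone of mice 32, 34 and 40, against 320.1 and 612 in remote mice 40 and 43. Border zone mouse 32 was the highest library and the others mixed (log2 change 0.59 ± 0.60, limma adjusted p = 0.615). Relative to all tested genes Sqstm1 was at 0.80, and at 0.22 without border zone mouse 32. Nbr1, a related receptor, had 1039.7, 1144 and 589.9 in the border zone mice and 734 and 632 in the remote mice. Here border zone mouse 40 was the lowest library (log2 change 0.38 ± 0.50, limma adjusted p = 0.702). Optn, which encodes optineurin, had 1767, 1774 and 1073 in the border zone mice and 1026 and 1601 in the remote mice, and the groups overlapped (log2 change 0.22 ± 0.48, limma adjusted p = 0.822).

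For the lysosomal genes and their regulator the libraries of the regions overlapped. Tfeb had 919, 375 and 751 normalized reads in the border zone of mice 32, 34 and 40, against 509.6 and 439 in remote mice 40 and 43, with border zone mouse 34 the lowest library (log2 change 0.43 ± 0.55, limma adjusted p = 0.695). Lamp1, a heavily glycosylated protein of the lysosomal membrane, had 395, 497 and 334 in the border zone mice and 238 and 376 in the remote mice (log2 change 0.43 ± 0.55, limma adjusted p = 0.694). Remote mouse 40 was its lowest library and border zone mouse 34 its highest. Lamp2, the related protein needed for autophagosomes to fuse with lysosomes, had 1092, 621 and 861 in the border zone mice and 919.5 and 1398 in the remote mice. Its highest library was remote mouse 43, and the change was -0.44 ± 0.49 (limma adjusted p = 0.652).

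Levels between genes were compared per kilobase of the longest transcript. Over all libraries Atg13 was highest, with 1025 normalized reads per kilobase, followed by Ambra1 with 672 and Optn with 554. Gabarapl1 had 111, Map1lc3b 35.9, Gabarap 31.0, Gabarapl2 20.3 and Map1lc3a 16.6 normalized reads per kilobase. The lowest of the 32 was Atg12 with 11.4. Within the initiation complex, Ulk1 had 291 normalized reads per kilobase and Atg101 14.2.

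The change of a gene moved with its abundance. Tested genes were divided by mean level into 5 equal bins. Of the 32 genes, 13 lay in the most abundant bin, and their median log2 change was 0.43, against 0.69 for all 2998 genes of that bin. The bin next to the lowest held Gabarap, Gabarapl2, Atg12 and Atg5, whose median was -2.10, against -0.79 for all genes there. Across the 32 genes the change correlated with the mean level at Spearman rho = 0.70 (Pearson r = 0.70 on the log2 level), and across 14889 tested genes with a known transcript length at rho = 0.34. With transcript length the correlation was rho = 0.42 for the 32 genes and rho = 0.16 for all genes. These describe correlations across genes, which are not independent replicates and share the same libraries, and length and level themselves correlated at rho = 0.65 among the 32. The part of library complexity in these values was not tested.

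**Figure D4:**
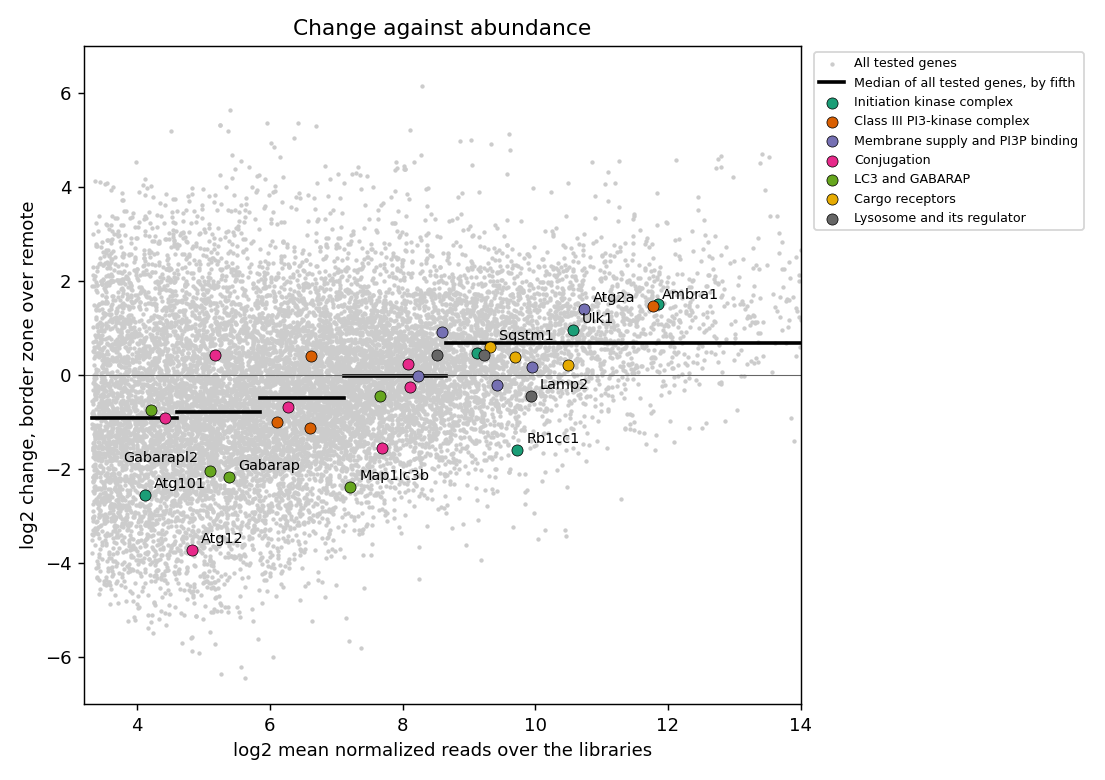
The x axis is log2 of the mean normalized reads over the libraries, ending at 14, and the y axis the log2 change, border zone over remote; grey points are all tested genes, coloured points the autophagy genes by role, and black bars the median of all tested genes in each of 5 equal bins of abundance. The bars run from -0.91 in the lowest bin to 0.69 in the highest, and Atg12, Gabarap, Gabarapl2 and Map1lc3b lie below the bar of their bin. Map1lc3a, which is not labelled, lies above its bar.

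Overlapping and adjoining genes were checked because the strand setting of the counting is not given in the sources used here. Another annotated gene overlapped 15 of the 32 genes. Gm20388, a protein-coding gene on the same strand, spans all 8400 bases of Map1lc3b and was at 0 in all libraries. Map1lc3b also shares its last 58 bases with the end of Zcchc14 on the opposite strand, and Zcchc14 had 2401, 1240.3 and 883 normalized reads in the border zone of mice 32, 34 and 40, against 576 and 417 in remote mice 40 and 43. Its log2 change of 1.49 ± 0.54 (limma adjusted p = 0.204) was opposite in sign to that of Map1lc3b. Harbi1, which starts back to back with Atg13, had 42.8, 86.1 and 50.9 in the border zone mice and 160.8 and 83.3 in the remote mice, a log2 change of -1.0 ± 0.82 (limma adjusted p = 0.527) against 1.51 for Atg13. Zcchc14 and Harbi1 were singled out after their values were seen.

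Among 34 other genes of autophagy and vesicle fusion, 31 were tested, with 16 positive and 15 negative changes and a median of 0.03. By limma 0 passed, and at an unadjusted p under 0.05 limma gave 5 higher and 2 lower, against 10.2% of all tested genes higher and 7.87% lower. The smallest p belonged to Plekhm1, an adaptor that links autophagosomes to the lysosome, with 1387, 2020.5 and 1508 normalized reads in the border zone of mice 32, 34 and 40, against 637 and 451 in remote mice 40 and 43. The groups did not overlap (log2 change 1.59 ± 0.47, limma adjusted p = 0.15). Tmem41b, a lipid scramblase of the endoplasmic reticulum, had -2.92 ± 1.05 on the log2 scale (limma adjusted p = 0.202), and Bag3, a co-chaperone of selective autophagy, 1.48 ± 0.53 (limma adjusted p = 0.203), both without overlap.

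Of 41 lysosome genes, 39 were tested, with 15 positive and 24 negative changes and a median of -0.35. At an unadjusted limma p under 0.05 stood 4 genes, all lower, where 7.87% of all tested genes were lower and 10.2% higher at that level. Atp6v1g1, a subunit of the proton pump that acidifies lysosomes, was the only gene of the 3 added lists that the authors' deposited table called, with a log2 fold change of -3.99 and an adjusted p of 0.0428. It had 4.75, 3.69 and 0.782 normalized reads in the border zone of mice 32, 34 and 40, against 26.4 and 66.5 in remote mice 40 and 43. The border zone values are of 1 to 3 recovered reads each, and limma gave -3.56 ± 1.46 (adjusted p = 0.237).

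A list of 41 genes held the nutrient-sensing kinases mTORC1 and AMPK, their regulators, and transcription factors such as Foxo1 and Zkscan3. Of these, 40 were tested, with 18 positive and 22 negative changes and a median of -0.31. At an unadjusted limma p under 0.05 stood 5 genes, all lower, against 7.87% of all tested genes lower and 10.2% higher, and 0 passed. Zkscan3, known in human cells as a repressor of autophagy genes, had 694, 839 and 1710.2 normalized reads in the border zone of mice 32, 34 and 40, against 2204 and 3544 in remote mice 40 and 43. The groups did not overlap (log2 change -1.48 ± 0.52, limma adjusted p = 0.198). Rheb, the GTPase that switches on mTORC1, had -1.91 ± 0.78 on the log2 scale (limma adjusted p = 0.237), and Foxo1, a transcription factor of atrophy and autophagy genes, of -2.09 ± 0.91 (limma adjusted p = 0.26).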

How the data were processed

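Nuclear RNA was sequenced from 3 border zone and 2 remote libraries. Per the submitters' processing notes, STAR, DESeq2 and the mm10 build were used; no source used here names the counting tool, its strand setting or the annotation. The deposited table holds, per gene and library, a never-negative signal, namely reads divided by a size factor. Read numbers were recovered as whole multiples of the value of 1 read, which held for 100% of nonzero entries within 0.01. The authors' deposited comparison table gives log2 fold changes, p-values and adjusted p-values.

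Groups were compared with limma 3.58.1 under R 4.3.3 (trended variance, two-sided, on log2(value + 1)), Benjamini-Hochberg adjusted over the 14989 genes with a mean of at least 10, which all 32 members passed. Count tests were edgeR 4.0.16 (quasi-likelihood) and DESeq2 1.42.0, which on the recovered reads called 902 genes. The limma p-values and SE use a variance between libraries moderated toward the trend of all tested genes, not a gene's own spread alone. All p-values take both libraries of mouse 40 as independent. SD is the spread of a gene's own values over 3 border zone and 2 remote libraries. The limit for a count of 0 is 3 reads and covers counting error only. Scripts were tested on simulated data. Transcript lengths are the authors' deposited values in bases. Positions are from GENCODE M21.

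Members and lists were chosen with earlier results of these data known. Values in every library are given for members with an unadjusted limma p under 0.05, the LC3, GABARAP, receptor and lysosomal genes, and further ones picked after their values were seen. Of each other list, called genes or the 3 with the smallest p are named. Alternatives covered pseudocounts of 0.5 and 5, no filter and a minimum mean of 50, 3 other scalings, both count tests, each library left out, and subsets of animals.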

Additional observations from a re-analysis of the deposited data

How the results depend on the processing

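No paired analysis was possible because the groups share only mouse 40. Under limma 0 genes were called. Total-count scaling and quantile normalization each called 1 gene and DESeq2 902. With each library left out in turn limma called 0 to 235, the highest without border zone mouse 40. On mice 40 and 43 alone, an alternative added after seeing the data, DESeq2 called 328 genes, of which 1 was an autophagy gene. Under the other alternatives run 0 autophagy genes were called.

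Relative to all tested genes, the median of the 32 genes was 0.09, with -0.15 under quantile normalization and 0.01 to 0.29 without 1 library. The other autophagy list was at 0.24, with 0.17 at a pseudocount of 5, 0.40 without a filter, 0.00 at a minimum mean of 50, -0.01 under quantile normalization, -0.09 with edgeR and with DESeq2, -0.08 in mice 40 and 43, -0.01 in mouse 40 and -0.02 to 0.20 without 1 library. The mTORC1 and AMPK list was at -0.10, with -0.38 under quantile normalization and -0.35 to -0.02 without 1 library. The lysosome list was at -0.14, and -0.48 to 0.17 without 1 library.

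Of 505 single-gene values under alternatives, 44 changed sign relative to all tested genes, in 17 of the 32 genes, and the cause was not tested. In mice 40 and 43 alone these were Wipi2 (-0.01), Becn1 (-0.03), Nbr1 (-0.23), Optn (-0.28), Wipi1 (-0.37), Atg4b (0.06), Atg3 (0.10), Atg14 (0.20), Pik3c3 (0.38), Atg16l1 (0.45), Atg101 (0.52) and Gabarapl2 (0.88). In mouse 40 alone they were Atg2a (-0.01), Wipi1 (-0.32), Nbr1 (-0.33), Wipi2 (-0.38), Atg14 (0.05), Atg4b (0.22), Atg101 (0.23), Pik3c3 (0.32), Map1lc3a (0.43), Atg16l1 (0.52) and Gabarapl2 (1.04). Quantile normalization changed Nbr1 (-0.09), Wipi2 (-0.14), Wipi1 (-0.38), Optn (-0.49) and Map1lc3a (0.36). No filter changed Atg16l1 (0.12) and Atg2b (0.15), a pseudocount of 0.5 Atg2b (0.00), and a minimum mean of 50 Wipi2 (-0.08). Without 1 library the values ran from -0.47 to 0.72 for Wipi2, -0.20 to 0.16 for Atg2b, -0.36 to 0.23 for Atg16l1, -1.62 to 0.36 for Pik3c3, -1.32 to 0.61 for Atg3, -0.54 to 0.06 for Lamp2, -0.64 to 0.16 for Gabarapl1 and -2.0 to 0.93 for Map1lc3a. Atg12 and Atg101 rest on few reads in some border zone libraries, although those libraries are the deeper ones.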
